A study of Mus musculus with 10 samples.

Results

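*Mov10* and *Mov10l1* encode a pair of related RNA helicases in mouse testis. They were picked by their Ensembl gene identifiers and make up 2 of the 55421 genes counted in each of 10 libraries. *Mov10* (ENSMUSG00000002227) lies on the minus strand of chromosome 3 (chr3:104794836-104818563 in GRCm38, the build also called mm10). *Mov10l1* (ENSMUSG00000015365) lies on the plus strand of chromosome 15 (chr15:88982909-89055152).

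All libraries came from testes of mice at postnatal day 21 (P21). RNA-seq was made from wild type testes (replicates 1, 2 and 3) and from *Mov10*-/- testes (replicates 2, 3 and 4), each library from a pair of testes. In the *Mov10*-/- mice *Actb*-Cre, which is driven by the ubiquitous beta-actin promoter, had removed floxed exons 8 to 14 of *Mov10* from the whole body, on a mixed background of 129, C57BL/6 and FVB. CLIP-seq, in which RNA cross-linked to MOV10 is precipitated with an antibody to MOV10, was made from wild type testes (replicates 1, 2, 3 and 5). Neither member was altered in the wild type mice, and *Mov10l1* was not targeted in any group.

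MOV10 and MOV10L1 belong to the UPF1-like helicases, which move along RNA using ATP. MOV10 is broadly expressed, sits with UPF1 and Argonaute proteins on messenger RNAs, and restrains retroviruses and the retrotransposon L1. MOV10L1 is made in male germ cells, where it binds the Piwi proteins and feeds precursor RNAs into the making of piRNAs, the small RNAs that silence transposons in the germ line.

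The sequence around the deletion is shown because it sets which *Mov10* reads can remain in the knockout. In the RefSeq-matched transcript ENSMUST00000166979, *Mov10* has 21 exons, 3584 nt and 1077 codons. Exons 8 to 14 hold 1058 bases, which cover codons 455 to 807 and span 2161 bases of the genome (chr3:104799392-104801552). The count of removed bases leaves 2 over after division by 3, so that joining exon 7 (chr3:104802426-104802594) to exon 15 (chr3:104797275-104797392) shifts the reading frame. The junctions read from the annotated transcript are as follows, with the exon after the junction in capitals.
Exon 7 to exon 8, wild type: ctgctcaccctggagGTTCCTGGTGTCGCA
Exon 14 to exon 15, wild type: gctccgcaactacagGTCTCACCCCACCAT
Exon 7 to exon 15, exons 8 to 14 removed: ctgctcaccctggagGTCTCACCCCACCAT

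In the shifted frame the first stop, in capitals in the next line, lay in exon 15 at codon 464, after 9 shifted codons.
First stop in the shifted frame: cctggacatcccTAAccagctgtacta
It lay 27 bases past the new junction and 692 bases upstream of the last exon junction, and 42.2% of the wild type codons stood before the deletion. The transcript without these exons would keep 1399 bases before and 1127 bases after the junction, or 70.5% of the exon bases. The files hold 1 count per gene and no positions, so that use of the exon 7 to exon 15 junction was not measured.

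**Figure D1:**
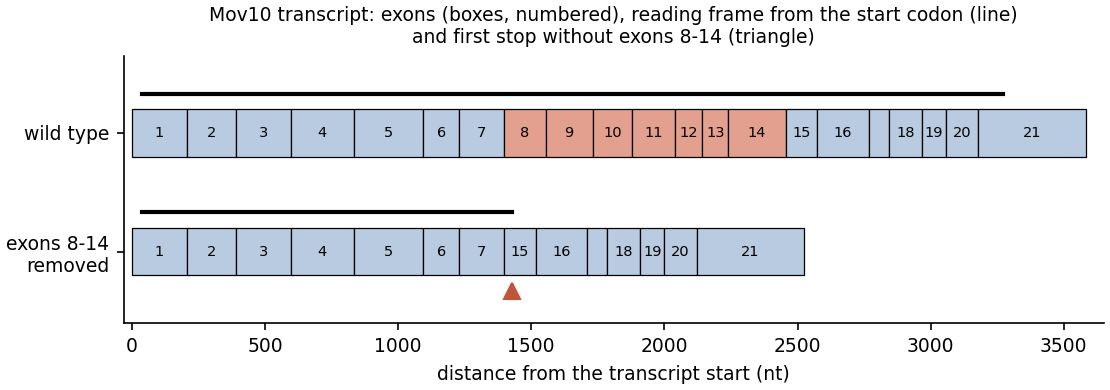
Exons of the *Mov10* transcript drawn to scale against the distance from the transcript start in nt, with exons 8 to 14 in red, above the same transcript without them. The black line over each runs from the start codon to the first stop in its frame, and the triangle marks the stop at codon 464.

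The paralogs share no long stretch of sequence, which bears on whether their reads could be mixed up. Over 2976 aligned coding bases, *Mov10* and *Mov10l1* (transcript ENSMUST00000015509, 27 exons, 4052 nt, 1187 codons) were identical at 61.1%. Identity was 60.6% within exons 8 to 14 of *Mov10* and 61.3% outside them. By exon it ran from 53.4% in exon 5 to 81.5% in exon 21, of which 27 coding bases could be aligned. The whole transcripts shared no run of 15 bases or more. The longest coding run they shared had 13 bases and lay in exon 8 of *Mov10* (chr3:104801398-104801552, from codon 458) and in exon 11 of *Mov10l1* (chr15:89005252-89005429, from codon 513). It is shown in capitals between its flanking bases, as the longest exact match found between the coding sequences.
*Mov10*, exon 8: tcctggtgTCGCAGAGAGCCGtccctcag
*Mov10l1*, exon 11: ccccgggcTCGCAGAGAGCCGgccttccc

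The RNA-seq libraries held 5083407 to 9230540 reads on genes. Knockout replicate 3 was the shallowest, with 57.2% of its reads not aligned, and the 4 CLIP-seq libraries held only 3404 to 4934 reads on genes. The CLIP-seq libraries held 9468912 to 15182658 reads in all, of which 99.5% to 99.6% per library were not aligned. The 9 tested markers of spermatids had a median log2 fold change, knockout over wild type, of -2.22 in edgeR's quasi-likelihood test, and 8 had an unadjusted p under 0.05, beside 11.9% of all genes tested in that direction. That test found none with both an adjusted p under 0.05 and a fold change over 2, while DESeq2 found 7. The spermatid markers summed to 277, 698 and 167 CPM (counts per 1000000 reads, scaled as described with *Mov10*) in wild type replicates 1, 2 and 3 and to 43.8, 155 and 65.3 CPM in knockout replicates 2, 3 and 4. Wild type replicate 2 stood apart, and without it the median was -1.56 over 8 markers tested, 6 of them with an unadjusted p under 0.05. In whole testis, fewer cells of a type and less RNA per cell cannot be told apart. The testis label was met by the spermatocyte list, all 11 genes of which passed the filter on low counts, with summed levels of 1155 to 1337 CPM over the 6 libraries.

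*Mov10* RNA was 4-fold lower in the knockout, with reads left in every knockout library. The wild type libraries held 969, 707 and 1115 *Mov10* reads, and knockout replicates 2, 3 and 4 held 235, 130 and 217. After TMM scaling, which evens out differences in composition between libraries, the wild type levels were 114, 96.8 and 120 CPM and the knockout levels 29.2, 26.7 and 26.8 CPM. Every knockout library was below every wild type library.

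The wild type mean was 110 ± 12.0 CPM (SD, n = 3) and the knockout mean 27.6 ± 1.39 CPM (SD, n = 3). The log2 fold change of *Mov10* was -2.00 ± 0.12 (SE), with a 95% interval from -2.28 to -1.71 and an adjusted p of 0.00552 (edgeR's quasi-likelihood test, Benjamini-Hochberg over 20240 genes). *Mov10* ranked 1st of these genes by p and was called lower, where called means an adjusted p under 0.05 and a fold change over 2. By this test, 0.00494% of all genes tested were called lower and 0.00% higher. DESeq2 called 5.13% of them at the same thresholds, in either direction. The exact test of edgeR called 1031 lower and 70 higher, and its likelihood ratio test 1104 and 83. A larger absolute log2 fold change than that of *Mov10* was found for 5.32% of all genes tested. Groups that did not overlap were common, since 14.1% of all genes had every knockout library below and 11.9% above every wild type library. Without knockout replicate 3 the *Mov10* log2 fold change was -1.98 (adjusted p = 0.106), and without knockout replicate 4 it was -1.98 (adjusted p = 0.143), so that the call rests on having both. Over the 18 settings compared it ran from -2.23 to -1.94, and *Mov10* was called in 16 of them.

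**Figure D2:**
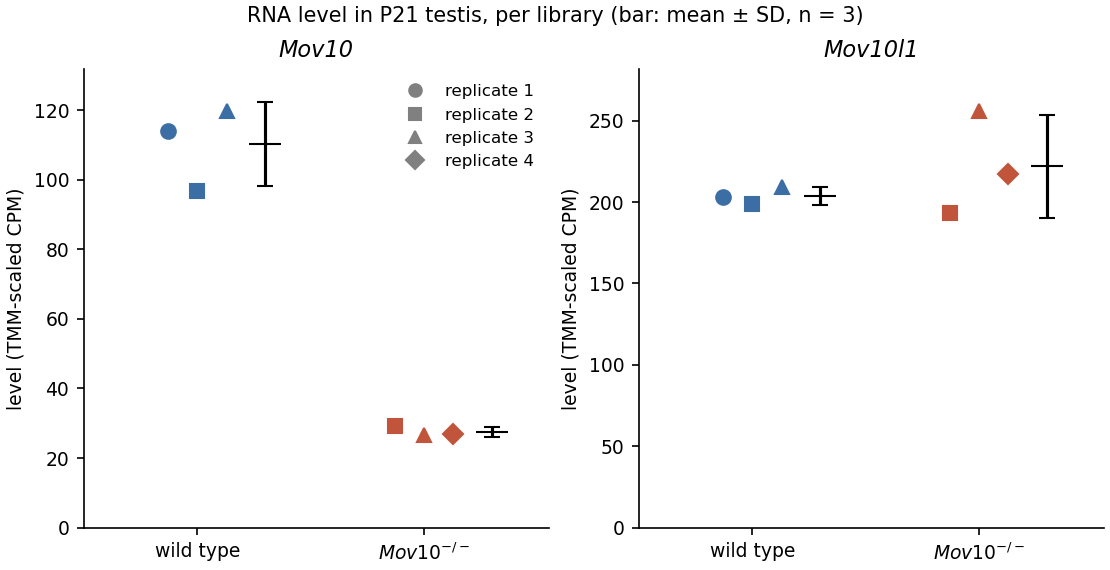
Level of *Mov10* (left) and *Mov10l1* (right) in each RNA-seq library, in TMM-scaled CPM, for wild type (blue) and *Mov10*-/- (red) testes; marker shapes give the replicate number and bars the mean ± SD (n = 3). *Mov10* sits at 96.8 to 120 in wild type and 26.7 to 29.2 in the knockout, while the *Mov10l1* groups overlap.

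The reads left in the knockout were fewer than the exons left. The knockout mean was 25.0% of the wild type mean, and the 3 knockout libraries stood at 26.4%, 24.2% and 24.3% of it (SD 1.26 percentage points). The interval of the fitted fold change put the share left between 20.5% and 30.5%. Exons outside the deletion hold 70.5% of the transcript's bases, which is above that interval. Set against these bases, the level left was 35.5% of wild type, from 29.1% to 43.3% by the same interval. With all annotated *Mov10* exons merged (5607 bases, 81.1% of them outside the deletion) it was 30.8%. Both values take wild type reads to be spread evenly along the exons, which was not measured, and the interval does not cover this. Counts by gene cannot show which exons the remaining reads came from. No other annotated gene overlapped *Mov10*.

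*Mov10l1* was not called in the knockout. The wild type libraries held 1726, 1450 and 1948 *Mov10l1* reads and knockout replicates 2, 3 and 4 held 1556, 1245 and 1758. The TMM-scaled levels were 203, 199 and 209 CPM in wild type and 193, 256 and 217 CPM in the knockout. Knockout replicate 2 was below and replicates 3 and 4 were above all wild type libraries, so that the groups overlapped.

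The *Mov10l1* mean was 204 ± 5.34 CPM (SD, n = 3) in wild type and 222 ± 31.8 CPM (SD, n = 3) in the knockout. Its log2 fold change was 0.12 ± 0.12 (SE, adjusted p = 0.614, edgeR's quasi-likelihood test over all genes tested), and it ranked 10754th by p. The 95% interval of this difference ran from -0.15 to 0.39, or from 0.902 to 1.31 as a fold. A change of *Mov10l1* as large as that of *Mov10*, or as large as the 2-fold needed for a call, was therefore outside the interval in either direction. Over the 18 settings the log2 fold change ran from 0.01, without knockout replicate 3, to 0.23, with a spermatid marker score as a covariate. *Mov10l1* was called in 0 of these settings.

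**Figure D3:**
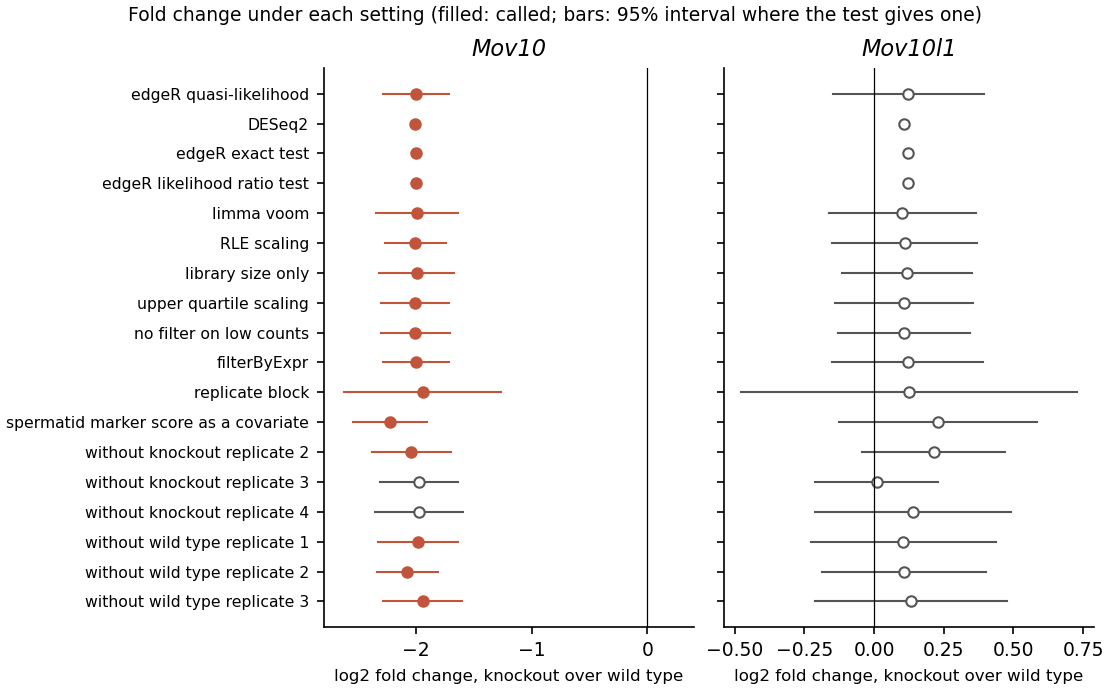
Log2 fold change, knockout over wild type, of *Mov10* (left) and *Mov10l1* (right) under each of the 18 settings, on axes of different range; bars are 95% intervals where the test gives one and filled points are called. *Mov10* stays between -2.23 and -1.94 and *Mov10l1* between 0.01 and 0.23.

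The balance between the paralogs can be read inside each library, where no scaling between libraries is needed. In wild type replicates 1, 2 and 3 there were 1.78, 2.05 and 1.75 *Mov10l1* reads for each *Mov10* read. In knockout replicates 2, 3 and 4 there were 6.62, 9.58 and 8.10. The log2 ratio of *Mov10* to *Mov10l1* reads was -0.89 ± 0.13 (SD, n = 3) in wild type and -3.00 ± 0.27 (SD, n = 3) in the knockout. The groups did not overlap and differed by -2.11 (exact two-sided permutation test over 20 splits, p = 0.1, the smallest value that 3 against 3 libraries can give).

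Since the makeup of the libraries differed, the level of each paralog was also set beside summed cell type markers of the same library. Sertoli cell markers summed to 640 to 759 CPM in wild type and 802 to 981 CPM in the knockout, and 4 of the 9 tested were higher in every knockout library than in every wild type library (median log2 fold change 0.35), beside 11.9% of all genes tested, and none was called by the quasi-likelihood test. *Mov10* stood at 15.6%, 15.1% and 15.8% of that sum in wild type and at 3.24%, 2.72% and 3.34% in the knockout. On this scale the share of *Mov10* left was 20.0% in place of 25.0%. As a share of the summed spermatogonia markers (302 to 411 CPM in wild type, 397 to 476 CPM in the knockout), *Mov10* stood at 28.0%, 32.0% and 29.2% in wild type and 6.12%, 6.24% and 6.74% in the knockout. Both scales left the genotypes wide apart.

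For *Mov10l1* the nearest list by cell type was that of spermatocytes. Its markers summed to 1155 to 1227 CPM in wild type and 1121 to 1337 CPM in the knockout (median log2 fold change 0.08), with none of the 11 genes separated by genotype. *Mov10l1* stood at 16.9%, 16.2% and 18.1% of that sum in wild type and 17.2%, 19.1% and 17.8% in the knockout. On this scale the knockout mean was 106% of the wild type mean. Scaled to the spermatogonia markers it was 93.0%, and scaled to the spermatid markers, which were themselves lower in the knockout, it was 414%. Over the knockout libraries the SD was 14.3% of the mean for *Mov10l1* itself and 5.46% of the mean as a share of the spermatocyte sum. Over the wild type libraries it was 2.62% and 5.72%, so that the scale narrowed the spread in the knockout and widened it in wild type. Knockout replicate 3, the highest in *Mov10l1*, was also the highest in spermatocyte markers and the shallowest library. It was also the highest of the knockout libraries in the spermatid marker sum. Leydig, peritubular or endothelial, macrophage and adipocyte lists had median log2 fold changes of 0.21, 0.41, 0.38 and 1.60, and adipocyte sums ran from 25.0 to 35.7 CPM in wild type and from 49.9 to 75.1 CPM in the knockout. The part of any of these markers in the levels of either paralog was not tested.

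Per length, *Mov10l1* was the more abundant of the paralogs in wild type testis. Per kilobase of merged exons, *Mov10* stood at 20.4, 17.3 and 21.4 CPM in wild type replicates 1, 2 and 3, and *Mov10l1* at 48.6, 47.5 and 50.0 CPM. The level of *Mov10l1* over that of *Mov10* was 2.49 ± 0.22 (SD, n = 3) in wild type and 10.9 ± 1.98 (SD, n = 3) in the knockout. The knockout ratio uses the full length of *Mov10*, deleted exons included, and so overstates the ratio per base that remains. By the longest transcript of each gene, in place of the merged exons, the wild type ratio was 1.67 ± 0.15 (SD, n = 3). The knockout ratio by that length, also with the deleted exons included, was 7.29 ± 1.33 (SD, n = 3). By merged exons, 97.6% of the 15724 protein-coding genes tested had a lower wild type level per kilobase than *Mov10l1*, and 74.8% had a lower one than *Mov10*.

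Among the UPF1-like helicases in wild type testis, *Mov10l1* and *Mov10* stood apart by level per kilobase of merged exons, with *Upf1* and *Znfx1* between them. *Mov10l1* at 48.7 ± 1.28 CPM per kilobase (SD, n = 3) overlapped with *Upf1*, the core helicase of nonsense-mediated decay, at 45.1 ± 5.59 CPM per kilobase. *Znfx1*, an antiviral helicase gene, followed with 29.5 ± 1.58 and did not overlap with either neighbour.

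*Helz*, at 19.9 ± 2.16 CPM per kilobase, and *Mov10*, at 19.7 ± 2.13, did not differ beyond their spread. Below them stood *Aqr*, a spliceosomal helicase gene, at 12.0, then *Zgrf1* at 9.80, *Ighmbp2* at 8.75, *Dna2* at 6.16 and *Helz2* at 2.11 CPM per kilobase. By the longest transcript *Mov10* stood ahead of *Aqr*, with which it overlapped, and of *Helz*.

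**Figure D4:**
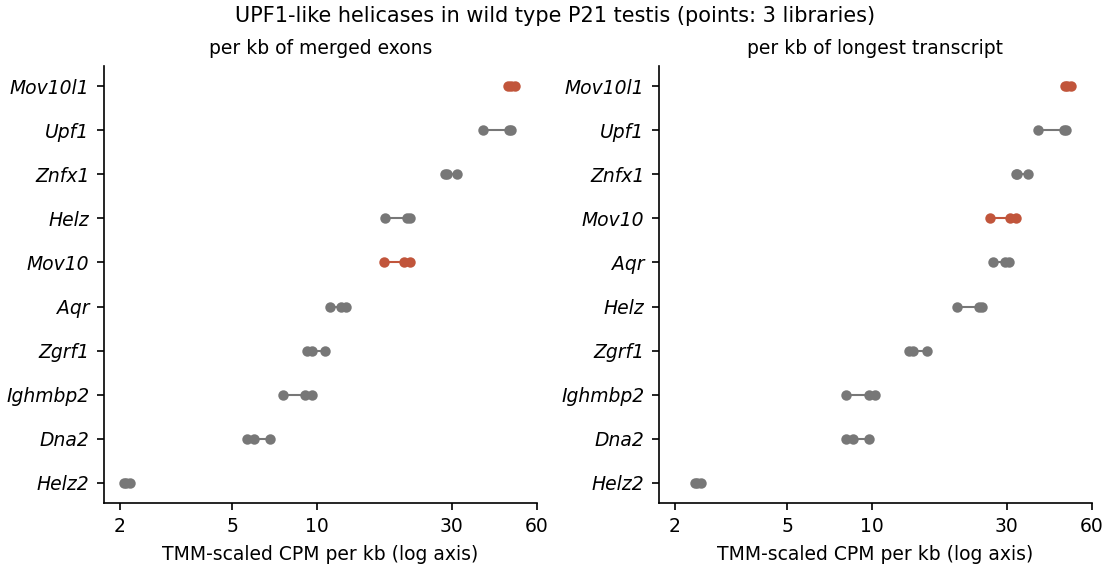
Wild type level of 10 UPF1-like helicases in TMM-scaled CPM per kilobase, on a log axis, by merged exons (left) and by the longest transcript (right); each point is 1 of 3 libraries and the paralogs are in red. *Mov10l1* overlaps with *Upf1*, and *Mov10* overlaps with *Helz* by merged exons.

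None of the 9 other UPF1-like helicases was called in the knockout by edgeR's quasi-likelihood test, by DESeq2 or by the other tests run. Over all genes tested, the quasi-likelihood test called 0.00494% lower and 0.00% higher, and DESeq2 called 5.13%. An unadjusted p under 0.05 was found for 0 of the 9, beside 11.9% of all genes tested in the lower and 5.58% in the higher direction. Their median log2 fold change was 0.09, beside 0.03 over all genes tested. Knockout libraries were apart from all wild type libraries for 1 of the 9, beside 26.0% of all genes tested, so that the share was not above the background. That gene was *Helz*, at 321, 262 and 314 CPM in wild type and 365, 326 and 337 CPM in the knockout (log2 fold change 0.20 ± 0.11, SE, adjusted p = 0.396), and with library size or upper quartile scaling its genotypes overlapped. *Upf1* had a log2 fold change of 0.22 ± 0.18 (SE) and *Helz2*, an interferon-induced relative, one of 0.14 ± 0.18 (SE).

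For MOV10, the list of partners held nonsense-mediated decay factors, Argonaute and GW182 proteins, RNase H2 subunits, terminal uridylyltransferases and antiviral factors, with *Upf1* also in the list above. Of its 27 genes 26 were tested, and *Trex1*, a DNA exonuclease gene, had 0 reads in every library. None was called by edgeR's quasi-likelihood test or by the other tests. Over all genes tested, the quasi-likelihood test called 0.00494% lower and 0.00% higher, and DESeq2 called 5.13%, so that the lack of calls does not set this list apart. Of the 26, 0 had an unadjusted p under 0.05, beside 17.5% of all genes tested, and 0 were separated by genotype, beside 26.0%. Their median log2 fold change was 0.10, with values from -0.13 to 0.34.

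*Ago2*, the Argonaute that slices targets, stood at 169, 140 and 204 CPM in wild type and 180, 206 and 198 CPM in the knockout (log2 fold change 0.18 ± 0.14, SE). *Zc3hav1*, which encodes the CpG-binding antiviral protein ZAP, stood at 58.3, 37.7 and 55.3 CPM in wild type and 72.7, 50.8 and 62.2 CPM in the knockout (0.30 ± 0.20). For *Rnaseh2a*, the catalytic subunit of the RNase H2 complex, the log2 fold change was 0.01 ± 0.20 (SE). The uridylyltransferase genes *Tut4* and *Tut7* had log2 fold changes of 0.04 ± 0.09 and -0.09 ± 0.09 (SE). For these 5 genes the genotypes overlapped.

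For MOV10L1, all 24 genes of the piRNA pathway list were tested and none was called by any of the tests. Over all genes tested, the quasi-likelihood test called 0.00494% lower and 0.00% higher, and DESeq2 called 5.13%. With shares this low, the lack of calls does not set the list apart from other genes. The median log2 fold change of the 24 genes was 0.00, with values from -0.57 to 0.44. An unadjusted p under 0.05 was found for 1 of the 24, beside 17.5% of all genes tested, and 2 were separated by genotype, or 8.33% beside 26.0% of all genes. *Fkbp6*, a cochaperone of piRNA loading, stood at 92.8, 90.9 and 91.5 CPM in wild type and 94.2, 119 and 97.8 CPM in the knockout (log2 fold change 0.18, adjusted p = 0.466). *Spocd1*, which links piRNAs to DNA methylation in fetal germ cells, stood at 23.0, 23.7 and 16.9 CPM in wild type and 12.7, 13.8 and 16.3 CPM in the knockout (log2 fold change -0.57, adjusted p = 0.261 by edgeR).

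Among the Piwi proteins that MOV10L1 binds, *Piwil1* (MIWI) had a log2 fold change of 0.12 ± 0.16 (SE) and *Piwil2* (MILI) one of 0.10 ± 0.11. *Piwil4* (MIWI2), which acts in fetal and early postnatal germ cells, stood at 11.4, 6.03 and 10.7 CPM in wild type and 16.0, 9.87 and 12.5 CPM in the knockout (0.44 ± 0.33). *Ddx4*, the germ cell helicase VASA, and *Mybl1*, which encodes A-MYB, the transcription factor of pachytene piRNA genes, had log2 fold changes of -0.11 and -0.13. The genotypes overlapped for all 5. By wild type level per kilobase of merged exons, *Mov10l1* stood 10th among these 25 genes with itself included, between *Gpat2* at 50.7 and *Tdrd9* at 43.9 CPM per kilobase. *Mael* was highest at 76.3 and *Piwil4* lowest at 1.74 CPM per kilobase. The range of *Mov10l1* overlapped with that of *Gpat2*. By the longest transcript *Mov10l1* stood 12th, after *Tdrd9*, with which it overlapped.

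**Figure D5:**
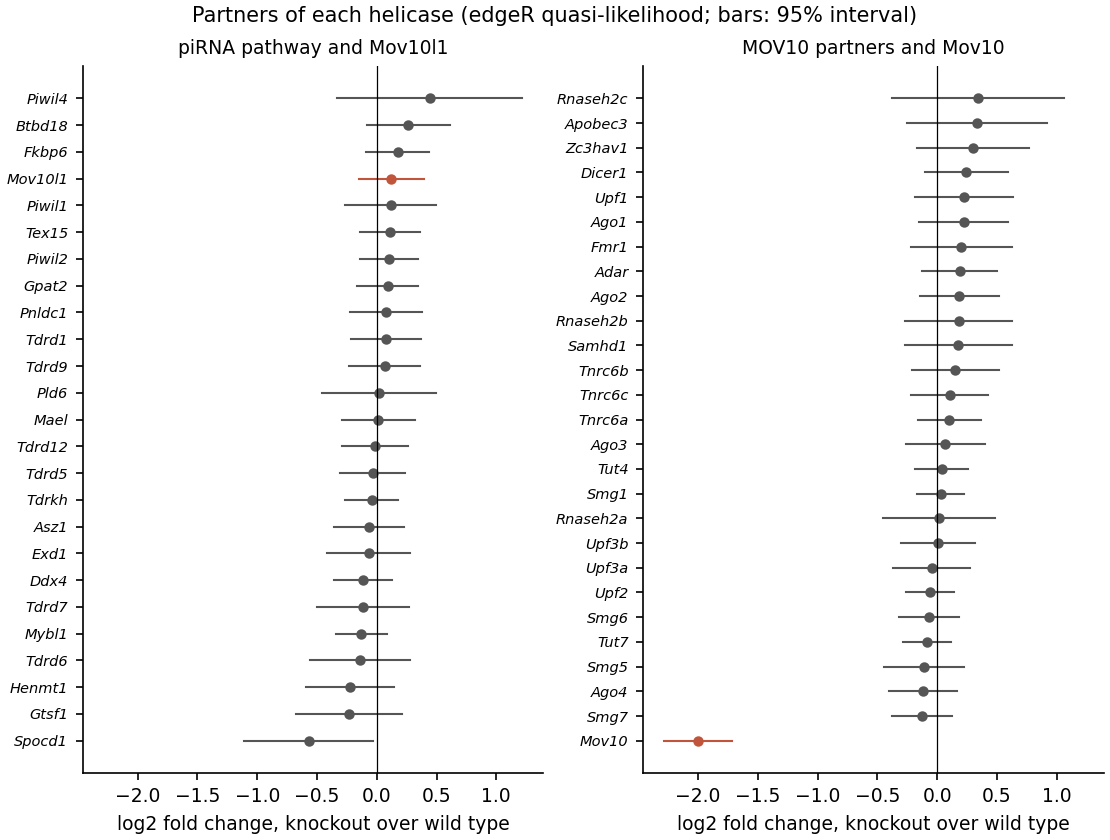
Log2 fold change, knockout over wild type, of the 24 piRNA pathway genes with *Mov10l1* (left, red) and of the 26 tested MOV10 partners with *Mov10* (right, red); points are edgeR estimates and bars 95% intervals. *Mov10* at -2.00 stands apart from all its partners, which run from -0.13 to 0.34, and *Mov10l1* at 0.12 sits within its pathway.

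The protein-coding genes on either side of *Mov10l1* were not called. *Mlc1* and *Panx2*, 3901 and 4581 bases away, had log2 fold changes of -0.01 ± 0.14 (SE, adjusted p = 0.985 by edgeR) and -0.15 ± 0.35 (SE, adjusted p = 0.846). The small nuclear RNA gene *Gm23737* lies inside *Mov10l1* and held 7 reads over the 6 RNA-seq libraries.

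Likeness of pattern was measured as the root mean square difference between centred log2 CPM profiles over the 6 RNA-seq libraries, among 15723 protein-coding genes for each paralog. For *Mov10* the 5 most alike were *AU021092* (0.249), *Ang* (0.255), *4930415L06Rik* (0.273), *Pamr1* (0.366) and *Chia1* (0.372), where the median gene differed by 1.05. *AU021092* stood at 28.9, 29.4 and 25.8 CPM in wild type and 8.93, 5.35 and 8.27 CPM in the knockout (adjusted p = 0.118 by edgeR's quasi-likelihood test). The other 4 were below 5 CPM in every library, so that few reads set their profiles. None of the 5 was called by that test, and ranking by likeness to *Mov10* itself favours genes lower in the knockout.

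For *Mov10l1* the 5 most alike were *Prr3* (0.0165), *BC005624* (0.0177), *Pspc1* (0.0215), *Mob3a* (0.0216) and *Nelfcd* (0.0235), where the median gene differed by 0.263. *Pspc1*, a paraspeckle protein gene, stood at 116, 111 and 118 CPM in wild type and 111, 141 and 119 CPM in the knockout. Like *Mov10l1*, it was highest in knockout replicate 3 and lowest among knockouts in replicate 2. These profiles share their libraries and depth, and the likeness is a description.

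In CLIP-seq neither paralog had a read. The counts of *Mov10* and of *Mov10l1* were 0 in all 4 libraries. Replicates 1, 2 and 3 were closer to each other than random sampling of reads would leave them (chi-square over degrees of freedom 0.219 to 0.237 between pairs, against 1.63 to 1.93 with replicate 5) and were counted as 1 sample, which left 8526 reads on genes. At that depth a count of 0 allows up to 3 counts, or 352 reads per 1000000 reads on genes (RPM). The wild type RNA-seq level on the same scale was 110 ± 14.8 RPM for *Mov10* and 203 ± 10.5 RPM for *Mov10l1* (SD, n = 3).

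The CLIP-seq to RNA-seq ratio could therefore be up to 3.21 for *Mov10* and 1.74 for *Mov10l1*. Without CLIP-seq replicate 5 the limits were 7.61 and 4.12, and with all mapped reads in place of reads on genes as the total of each library they were 0.376 and 0.204, so that the choice of total decides whether they lie above or below 1. If CLIP-seq reads fell in proportion to wild type RNA, 0.936 reads of *Mov10* and 1.73 of *Mov10l1* would be expected in all. Binding of MOV10 to either RNA was not detectable with so few reads on genes, and its absence was not shown. These limits cover counting error only. Of their relatives and partners, the other helicases had 15 CLIP-seq reads on 4 of 9 genes, the MOV10 partners 51 reads on 14 of 27 genes and the piRNA pathway 15 reads on 7 of 24 genes, summed over the 4 libraries. These sums count replicates 1, 2 and 3 separately, although they were taken as 1 sample above. They were not set against RNA level or against the share of all genes with reads, and so do not measure binding.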

How the data were processed

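RNA-seq of 3 wild type and 3 *Mov10*-/- testis samples and 4 MOV10 CLIP-seq libraries were used. The values are raw read counts by Ensembl gene as deposited by the authors, who aligned RNA-seq reads to mm10 with STAR and counted them against Ensembl v99 with htseq-count; the strand setting is not given in the sources used here. Closing rows of reads outside genes were left out. IDs were matched to GENCODE M21 (55154 of 55421), which also gave exons and sequences. Biopython 1.88 aligned the coding sequences (match 2, mismatch -1, gap opening -5, extension -1).

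Genes that exceeded 1 RPM (reads per 1000000 reads on genes) in 3 or more of the 6 RNA-seq libraries were tested with edgeR 4.0.16 (TMM, quasi-likelihood, Benjamini-Hochberg) in R 4.3.3, after the method was tested on simulated data. The simulation gave every gene the same dispersion and held no difference in cell makeup, so it did not test the method under the differences seen here. A call needed an adjusted p under 0.05 and a fold change over 2. Intervals are 95%. DESeq2 1.42.0, limma 3.58.1 (voom), edgeR's exact and likelihood ratio tests, other scalings and filters, a replicate block, a spermatid score and leaving out each library were alternatives. Nothing says that the samples of a group came from separate litters, so p-values measure the spread between these samples. The members and gene lists were chosen with earlier results of these data known. Named genes were the members, 13 genes set by role, genes of a list separated by genotype, neighbours, and the 5 genes nearest in profile. Some genes of this rule are not reported here. Genes added to place levels, and *Trex1*, were named after their values were seen. Scaling to Sertoli, spermatogonia, spermatocyte or spermatid markers was also chosen after seeing the data.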

Additional observations from a re-analysis of the deposited data

How the results depend on the processing

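Over 17 alternatives *Mov10* stayed lower and was called in 15, with leave-one-out log2 fold changes of -2.08 to -1.95 and the call lost without knockout replicate 3 or 4, and *Mov10l1* was uncalled in all 17. The share of *Mov10* left ran from 23.6% to 26.1% with each library left out and was 20.0% scaled to Sertoli markers. The wild type per-length ratio of *Mov10* to *Mov10l1*, 0.403, was 0.601 by the longest transcript, as that length is shorter for *Mov10*. The CLIP-seq ratio limits of *Mov10* and *Mov10l1* were 0.376 and 0.204 with all mapped reads as the total, 1.74 and 0.943 with the replicates as separate libraries, and 3.17 to 7.61 and 1.72 to 4.12 with each replicate left out, highest without CLIP-seq replicate 5, as fewer reads remain. Genes separated by genotype numbered 0 among the other helicases by library size or upper quartile scaling and 1 to 2 with a library left out. They numbered 1 among MOV10 partners by RLE scaling (3.85%, beside 26.1% of all genes) and 0 to 5 with a library left out, and 2 to 8 in the piRNA pathway with a library left out, where fewer libraries overlap less often: over all genes tested the share was then 29.4% to 41.1%, and no list went above the share of its setting except the piRNA pathway without knockout replicate 2 (33.3% beside 33.2%). Genotypes shared only replicate numbers 2 and 3, whose deviations from their group means correlated by -0.46 and -0.34. Deviations within groups of 3 cannot show whether equal numbers mark a shared litter or batch, and the labels do not say. With the replicate block the log2 fold change was -1.94 (SE 0.34, adjusted p = 0.00141) for *Mov10* and 0.13 (adjusted p = 0.995) for *Mov10l1*, and none of the 3 lists had a call. Over all 20240 genes tested this fit called 148 lower and 36 higher. This fit compares genotypes only within replicate numbers 2 and 3, as numbers 1 and 4 each occur in a single genotype. CLIP-seq is limited by its few reads on genes, with 99.5% to 99.6% of the reads of each library not aligned, and both genes had 0 reads.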
